A study of Mus musculus with 12 samples.

Results

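The integrated stress response is a pathway by which cells lower general protein synthesis and switch on genes for amino acid supply and stress adaptation. Its kinases (PERK, GCN2, PKR and HRI) phosphorylate the translation initiation factor eIF2, which slows most translation but favours translation of the messengers of ATF4, ATF5 and CHOP through short upstream reading frames. ATF4 then binds with C/EBP family partners to composite elements near its target genes, and CHOP and ATF3 act further along the same cascade. The 10 regulators described here were Atf4, Atf5, Atf3 and Ddit3 (the gene of CHOP), Nupr1, Trib3 and Chac1, and Ddit4, Sesn2 and Eif4ebp1. They were chosen from a list of gene symbols that was drawn up with results of these same libraries in view, so their counts and fold changes are a description and are not independent evidence that the pathway as a whole moved. Which measured values were used in drawing up that list is not recorded in the sources used here.

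The symbols matched 11 of the 56748 rows of the count table. A second Ddit3 identifier, ENSMUSG00000116429, had 0 counts in all 12 libraries and was not tested, and the other 10 rows, one per gene, passed the filter on low counts and were among the 16465 genes tested. RNA was sequenced from 10T1/2 cells (C3H10T1/2, genotype WT), an established and clonal mouse line of mesenchymal progenitors, 18 h after plating on 12 kPa surfaces that carried a type I collagen coat (0.05 mg/mL). All groups had been serum starved and held in suspension for 1 h before plating. The labels give 0.5% FBS for the suspension step, whereas the study's methods give 0.5% FBS for an overnight starvation and serum-free medium for the suspension. The collagen was polymerized without ACLP (aortic carboxypeptidase-like protein, a secreted collagen-binding protein) in the group col1 and with 30 nM recombinant ACLP in col1-ACLP and col1-ACLP+SB. Cells of col1-ACLP+SB were in addition given SB431542, an inhibitor of the TGFβ receptor kinase ALK5, when they were seeded. Each group had 4 libraries. No group had SB431542 on collagen without ACLP, so an effect of the inhibitor by itself and its effect on the response to ACLP cannot be told apart.

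Totals ran from 29246154 to 52201922 counts per library. Levels are given as CPM, which is the count of a gene as a share of its library, in CPM units, after scaling by TMM factors of 0.966 to 1.02. The mesenchymal genes Pdgfra, Pdgfrb, Vim, Col1a1, Col1a2 and Prrx1 were present in every library, at no less than 230.2, 418, 4708, 11718, 7190 and 406 CPM. Thy1 and Twist1, the other mesenchymal genes followed, were lower, at 17.9 to 25.7 and 17.7 to 28.9 CPM. Of 16 markers of other cell types, Adgre1, Epcam, Sox10, Myod1 and Myog were at 0 counts throughout and 4 reached the level needed for testing. The summed level of those 16 markers was 41.4 to 44.3 CPM on col1, 27.7 to 34.01 on col1-ACLP and 29.5 to 31.6 on col1-ACLP+SB, and its part in any result was not tested. The largest part of the sum was Pparg, at a mean of 27.0, 17.5 and 16.2 CPM in those groups. The adipocyte markers Adipoq and Plin1 reached no more than 0.268 and 0.0929 CPM. The study describes 10T1/2 cells as able to take an adipogenic course, so Pparg need not come from other cells. The library col1 replicate 2 stood apart from the rest on the first principal component (-86.7, against -11.1 to -8.97 in the other col1 libraries and 10.0 to 20.6 in all others), so counts are also given without it. In bulk RNA a larger share of cells with a transcript and more of it per cell cannot be told apart, and messenger levels do not measure the translation step at which ATF4, ATF5 and CHOP are controlled.

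Short sequences upstream of the start sites are shown first because the C/EBP-ATF response element, where ATF4 dimers bind, is the sequence feature that defines this pathway. The 300 bases before the start of each gene's canonical transcript (GRCm39, GENCODE vM39) were searched for TGATGNAA and its reverse complement TTNCATCA on both strands. For Atf3 and Nupr1 that start lies inside the gene span given further below, and bases before the outer end of the span were not searched. A match was present in 4 of the 10 regulators, against 338 of 12676 tested protein-coding genes, or 2.67%. The regulators were listed as genes of this pathway, so a share above that of all genes is no test. In the other lists used below the share ran from 0% (p53 targets among them) to 16.7% (aminoacyl-tRNA synthetases, 2 of 12). Capitals mark the match in the 60 bases shown for each, read 5′ to 3′ on the strand of the gene.
Chac1, chr2:119181504-119181563, plus strand: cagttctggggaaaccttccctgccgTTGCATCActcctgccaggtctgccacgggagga
Ddit3, chr10:127126335-127126394, plus strand: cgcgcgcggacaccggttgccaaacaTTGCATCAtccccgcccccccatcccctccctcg
Atf3, chr1:190915607-190915666, minus strand: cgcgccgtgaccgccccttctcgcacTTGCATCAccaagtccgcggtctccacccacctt
Sesn2, chr4:132238038-132238097, minus strand: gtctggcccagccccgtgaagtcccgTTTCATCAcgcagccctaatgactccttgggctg
The matches lay at bases -159 to -152 of Chac1, -199 to -192 of Ddit3, -103 to -96 of Atf3 and -256 to -249 of Sesn2, counted from the start site. Chac1, Ddit3 and Atf3 carried the same 8 letters. These letters were not found in this window of Atf4, Atf5, Nupr1, Trib3, Ddit4 or Eif4ebp1. A match is a description of the sequence and not a measured binding site.

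In the comparison of col1-ACLP with col1, which addresses how collagen-bound ACLP changes gene expression, 8 of the 10 regulators were higher at an adjusted p under 0.05 (the quasi-likelihood test of edgeR, adjusted by the Benjamini-Hochberg method over all genes tested), and none was lower, also at an unadjusted p under 0.05 and with DESeq2 or limma-voom. Over all genes tested 9.52% were higher and 8.41% lower by that rule (1568 and 1385 genes), and scaling by library size alone gave 1159 and 1865 genes with the regulators still at 8 higher. Trib3 and Chac1 changed most, by 3.76-fold and 2.83-fold, and Atf3 and Ddit3 were the regulators that did not pass. The same 8 genes had all 4 col1-ACLP libraries above all 4 col1 libraries, where 10.9% of all genes tested did. With the further threshold of 0.58 on the log2 fold change, 5 were called (Trib3, Chac1, Atf5, Eif4ebp1 and Nupr1), against 2.61% of all genes. The median log2 fold change of the 10 was 0.54, against -0.0099 over all genes tested. The call at an adjusted p under 0.05 was kept by 8 of 10 without col1 replicate 2. The 5 calls with the fold threshold fell to 3 without col1-ACLP replicate 4, where Eif4ebp1 (0.57) and Nupr1 (0.56) dropped just under it, and Nupr1 at 0.583 was the gene closest to that line in the full data.

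In col1-ACLP+SB against col1, 7 of the 10 were higher and none lower, where 4.60% of all genes tested were higher and 4.54% lower. Sesn2 was the gene that passed in the first comparison and not in this. All 4 col1-ACLP+SB libraries lay above all 4 col1 libraries for those 7 genes, as for 6.70% of all genes. Trib3 and Chac1 also passed the fold threshold, which 1.27% of all genes passed upward, and Atf5 lay just outside it at 0.575. Without col1 replicate 2, Atf5 passed as well (0.60, and 0.58 to 0.61 without col1 replicate 1 or col1-ACLP+SB replicate 1, 3 or 4), which made 3 with the fold threshold, and Sesn2 passed the adjusted p, which made 8 of 10 higher. The median log2 fold change of the 10 was 0.42. Both comparisons use the same col1 libraries, so their values are given side by side and are not independent of each other.

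**Figure D1:**
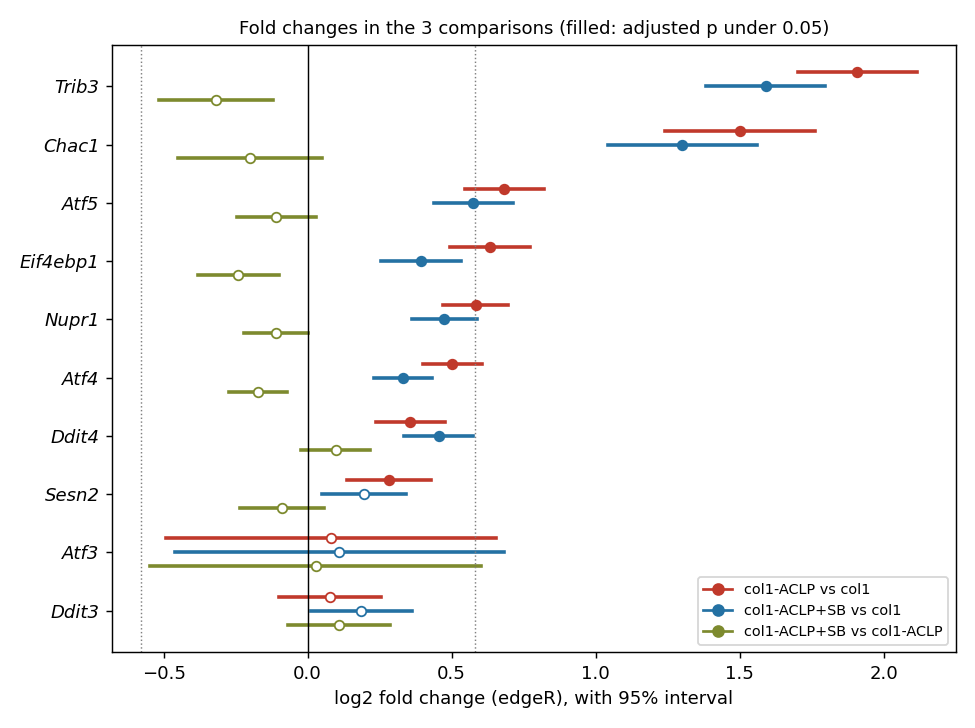
Log2 fold change on the horizontal axis with its 95% interval from edgeR for each of the 10 regulators, in col1-ACLP against col1 (red), col1-ACLP+SB against col1 (blue) and col1-ACLP+SB against col1-ACLP (green), with 4 libraries per group. Filled points have an adjusted p under 0.05 and dotted lines mark 0.58 in either direction. Trib3 (1.91 and 1.59) and Chac1 (1.50 and 1.30) lie far to the right of the other genes in both comparisons with col1, and no green point is filled.

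Between col1-ACLP+SB and col1-ACLP, the comparison that addresses what inhibition of ALK5 changed, 0 of the 10 passed an adjusted p of 0.05 in edgeR, where 1.48% of all genes tested did in either direction and 0.905% were lower. At an unadjusted p under 0.05, 3 passed in either direction, all of them lower with the inhibitor (Atf4, Trib3 and Eif4ebp1). Of all genes tested, 12.8% passed in either direction. DESeq2 called 2 (Atf4 and Eif4ebp1), where it called 240 genes higher and 342 lower in all, and limma-voom 1 (Atf4), where it called 82 higher and 177 lower. The estimate was below 0 for 7 of 10 genes, with a median log2 fold change of -0.11. The groups did not overlap for Atf4 and Nupr1, where all col1-ACLP+SB libraries lay below all col1-ACLP libraries, and 8.17% of all genes tested were apart in either direction. The calls turned on single libraries, since Trib3 passed without col1-ACLP+SB replicate 2 (log2 fold change -0.40, adjusted p = 0.0366) and Eif4ebp1 without col1-ACLP+SB replicate 3 (-0.29, adjusted p = 0.0296).

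Trib3, which encodes a pseudokinase induced by ATF4 and CHOP that in turn restrains ATF4 and AKT, gave the largest change. Its gene (ENSMUSG00000032715) lies at chr2:152179342-152185952 on the minus strand. Its level was 25.6, 35.2, 27.4 and 30.9 CPM in col1 replicates 1 to 4, 109, 99.2, 103 and 136 CPM on col1-ACLP, and 87.6, 105, 85.1 and 81.0 CPM on col1-ACLP+SB. The lowest ACLP library of either kind was thus above the highest col1 library, while the ACLP groups with and without the inhibitor overlapped through col1-ACLP+SB replicate 2. The mean rose from 29.8 ± 4.24 (SD, n = 4) to 112 ± 16.6 CPM on col1-ACLP, a fold of 3.76 (95% interval 3.25 to 4.34, adjusted p = 2.96e-13 in edgeR's test). Of all genes tested, 151 (0.917%) changed by at least as much in either direction. With the inhibitor the mean was 89.7 ± 10.7 CPM, which was 3.01-fold above col1 (2.61 to 3.47) and 0.802 times the level on col1-ACLP (0.699 to 0.919, adjusted p = 0.101).

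Chac1 encodes an enzyme that cleaves glutathione and is a target of the ATF4, ATF3 and CHOP cascade. The gene (ENSMUSG00000027313) spans chr2:119181710-119184862. It measured 17.3, 22.1, 13.8 and 20.8 CPM on col1, 48.6, 43.3, 59.8 and 58.1 on col1-ACLP, and 41.4, 55.4, 46.2 and 39.6 on col1-ACLP+SB. As for Trib3, both ACLP groups were clear of col1 and overlapped each other. The mean went from 18.5 ± 3.73 to 52.5 ± 7.81 CPM (SD, n = 4), a fold of 2.83 (2.36 to 3.39, adjusted p = 1.40e-09 in edgeR's test), and was 2.47-fold above col1 (2.06 to 2.95) with the inhibitor. The fold of col1-ACLP+SB against col1-ACLP was 0.871, with an interval of 0.732 to 1.04 that reaches from a decrease to no change.

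**Figure D2:**
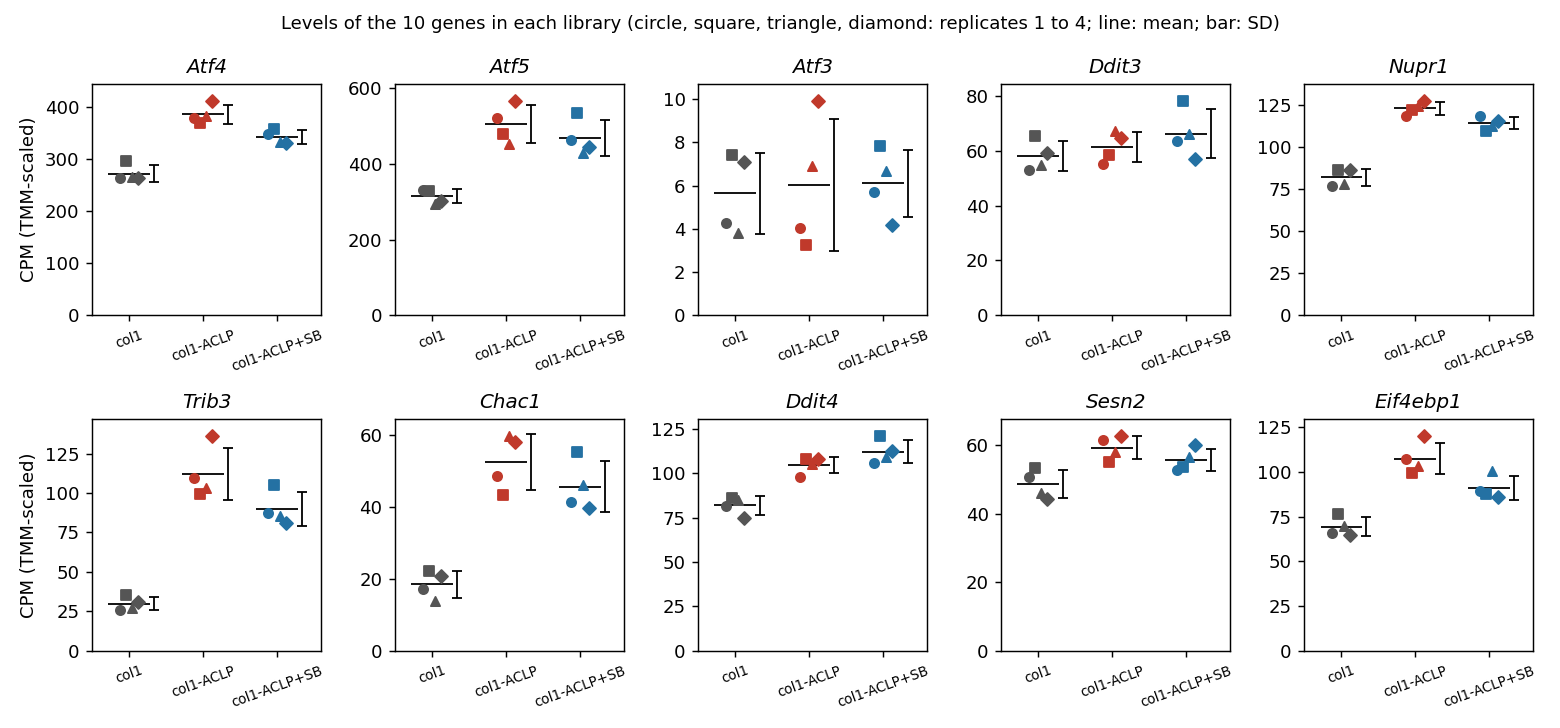
CPM from 0 on each vertical axis for the 10 regulators in the 12 libraries, with a point per library whose shape gives the replicate number, a line at the mean and a bar of 1 SD either side for each group of 4. Trib3 and Chac1 show the widest gap between col1 and the other groups, and the groups of Atf3 and Ddit3 overlap throughout.

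The transcription factors at the head of the pathway rose less. Atf4 (ENSMUSG00000042406, chr15:80139385-80141742) measured 263, 296, 266 and 264 CPM on col1, 380, 369, 383 and 412 on col1-ACLP, and 349, 358, 333 and 330 on col1-ACLP+SB. The groups fell in 3 separate bands, with the inhibitor libraries between the others. The mean was 272 ± 15.8, 386 ± 18.4 and 342 ± 13.2 CPM (SD, n = 4), which was 1.42-fold above col1 with ACLP (1.32 to 1.52, adjusted p = 2.18e-08 in edgeR's test) and 1.26-fold with ACLP and inhibitor (1.17 to 1.35). Against col1-ACLP the fold with the inhibitor was 0.887 (0.827 to 0.952), at an adjusted p of 0.0796.

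Atf5, a relative of Atf4 that is also controlled by upstream reading frames, measured 332, 329, 296 and 301 CPM on col1, 522, 480, 452 and 567 on col1-ACLP, and 463, 536, 430 and 446 on col1-ACLP+SB. Every ACLP library exceeded every col1 library. Its folds over col1 were 1.61 (1.46 to 1.77, adjusted p = 2.00e-08 in edgeR's test) and 1.49 (1.35 to 1.64). Atf5 (ENSMUSG00000038539, chr7:44461680-44466082) shares 571 bases with Nup62 on the other strand, whose counts came to 7.76% of those of Atf5 and whose log2 fold change in col1-ACLP was 0.12 (adjusted p = 0.432). The strand setting of the counting is not given in the sources used here.

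Ddit3 and Atf3, the CHOP and ATF3 genes that are usually listed as outputs of strong or lasting stress, did not pass in any comparison. Ddit3 (ENSMUSG00000025408, chr10:127126643-127132157) measured 53.01, 65.3, 54.9 and 59.0 CPM on col1, 55.2, 58.4, 67.1 and 64.6 on col1-ACLP, and 63.5, 78.2, 66.0 and 56.8 on col1-ACLP+SB. The groups overlapped, with folds of 1.06 (0.934 to 1.19, adjusted p = 0.626) and 1.14 (1.01 to 1.29, adjusted p = 0.213) over col1. The upper limits lie below the lower limit of Chac1, whose upstream sequence holds the same 8 letters. Ddit3 shares 68 bases with Mars1 on the other strand, and Mars1 had more than its counts (204% of them over the 12 libraries) and a log2 fold change of 0.74 in col1-ACLP.

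Atf3 (ENSMUSG00000026628, chr1:190902493-190950236) was the lowest of the 10, at 4.28, 7.41, 3.79 and 7.11 CPM on col1, 4.03, 3.23, 6.91 and 9.92 on col1-ACLP, and 5.70, 7.85, 6.68 and 4.20 on col1-ACLP+SB. The range inside each group was wider than any difference between groups. These values rest on 117 to 346 counts per library. The fold of col1-ACLP over col1 was 1.06 with an interval of 0.711 to 1.58, which includes the fold of Atf4, and the sign of the estimate depended on single libraries (log2 fold change -0.27 without col1-ACLP replicate 4).

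Nupr1 (ENSMUSG00000030717, chr7:126222421-126230033), which encodes a small stress-induced chromatin protein, measured 77.0, 86.3, 78.0 and 86.3 CPM on col1, 118.1, 122, 124 and 127 on col1-ACLP, and 118.0, 110, 113 and 115 on col1-ACLP+SB. Its spread was among the narrowest of the 10, and the groups formed 3 bands as those of Atf4 did, the upper pair barely apart. The folds over col1 were 1.50 (1.39 to 1.62) and 1.39 (1.29 to 1.50), and that of the inhibitor group over col1-ACLP was 0.928 (0.859 to 1.00, adjusted p = 0.411 in edgeR's test).

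The last 3 regulators meet the mTORC1 pathway. Ddit4 (REDD1) and Sesn2 lower mTORC1 activity, and Eif4ebp1 encodes the inhibitor of the cap-binding factor eIF4E that mTORC1 switches off. Ddit4 (ENSMUSG00000020108, chr10:59785491-59787656) measured 81.6, 86.2, 84.7 and 74.8 CPM on col1, 98.1, 108, 105 and 108 on col1-ACLP, and 106, 121, 109 and 112 on col1-ACLP+SB. It was the only called gene of the 10 with a higher mean in col1-ACLP+SB (112 ± 6.35, SD, n = 4) than in col1-ACLP (105 ± 4.63), by a fold of 1.07 whose interval of 0.985 to 1.16 includes 1. Its folds over col1 were 1.37 (1.26 to 1.49) and 1.28 (1.18 to 1.39) in those groups.

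Eif4ebp1 (ENSMUSG00000031490, chr8:27750357-27766702) measured 65.8, 76.5, 69.7 and 64.8 CPM on col1, 107, 99.5, 103 and 120 on col1-ACLP, and 89.0, 87.8, 100.5 and 85.8 on col1-ACLP+SB. Both ACLP groups were above col1, and a single inhibitor library, replicate 3, reached into the range of col1-ACLP. Its folds over col1 were 1.55 (1.41 to 1.71) and 1.31 (1.19 to 1.45), and the fold of the inhibitor group over col1-ACLP was 0.847 (0.769 to 0.932, adjusted p = 0.0741 in edgeR's test). Sesn2 (ENSMUSG00000028893, chr4:132219343-132237812) measured 50.9, 53.5, 46.2 and 44.4 CPM on col1, 61.4, 55.1, 58.2 and 62.7 on col1-ACLP, and 52.8, 53.8, 56.6 and 60.1 on col1-ACLP+SB. Its fold of 1.22 on col1-ACLP (1.10 to 1.35, adjusted p = 0.00483) was the smallest that passed. With the inhibitor it was 1.15 (1.04 to 1.27, adjusted p = 0.0900), which passed without col1 replicate 2 (adjusted p = 0.0342, against 0.0342 to 0.273 over the alternatives that test for any difference). The long noncoding gene Gm12981 lies within Sesn2 on the same strand and had 0.666% of its counts.

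Levels can be compared between genes only per length, and FPKM was computed here from the counts and the gene lengths in the table. On col1, Atf5 (158 ± 9.46 FPKM, SD, n = 4) was highest, followed by Atf4 (115 ± 6.68) and Ddit4 (46.6 ± 2.90), each clear of the next. Ddit3, Nupr1 and Eif4ebp1 came next at 33.9, 32.6 and 31.5 FPKM with overlapping ranges, then Sesn2, Trib3 and Chac1 at 14.03, 14.01 and 11.3 FPKM, which overlapped from each to the next, and Atf3 was last at 2.62 FPKM. On col1-ACLP the head and the foot of the order were as on col1, with Atf5 at 254, Atf4 at 164 and Atf3 at 2.80 FPKM. Trib3 moved from place 8 to place 4, at 52.7 ± 7.79 FPKM, where its range overlapped those of Ddit4 (59.7) and Eif4ebp1 (48.9). Chac1, at 32.0 FPKM, passed Sesn2 (17.1) and reached the range of Ddit3 (35.8).

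Some of these genes were high and low in the same libraries of a group. The library col1 replicate 2 was the highest of its group for 8 of the 10 regulators, col1-ACLP replicate 4 for 7 and col1-ACLP+SB replicate 2 for 7. Over all genes tested these libraries were the highest of their groups for 29.8%, 27.5% and 30.4%. The library col1-ACLP replicate 2 was the lowest for 6 and col1-ACLP+SB replicate 4 for 6, and over all genes tested for 25.5% and 22.7%. When the group mean was subtracted from log2 CPM, the Pearson correlations of the 45 pairs of regulators over the 12 libraries ran from -0.21 (Nupr1 and Ddit4) to 0.89, with a median of 0.40 and 42 above 0. The highest were found among Atf4, Atf3, Ddit3, Trib3 and Chac1. Atf4 and Trib3 had a correlation of 0.89, Atf3 and Chac1 of 0.88, Ddit3 and Chac1 of 0.82, Atf3 and Trib3 of 0.81 and Atf3 and Ddit3 of 0.79. These are given as a description, since the points share libraries and depth. Pairs of other genes were not examined in this way, so the 42 of 45 is not set against a background. Atf3, whose group means differed little, thus tended to run high and low in the same libraries as Chac1 and Trib3, whose group means differed most. Over all 12 libraries with the group means left in, the correlation of Atf3 with Trib3 was 0.21 and with Chac1 0.33.

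**Figure D3:**
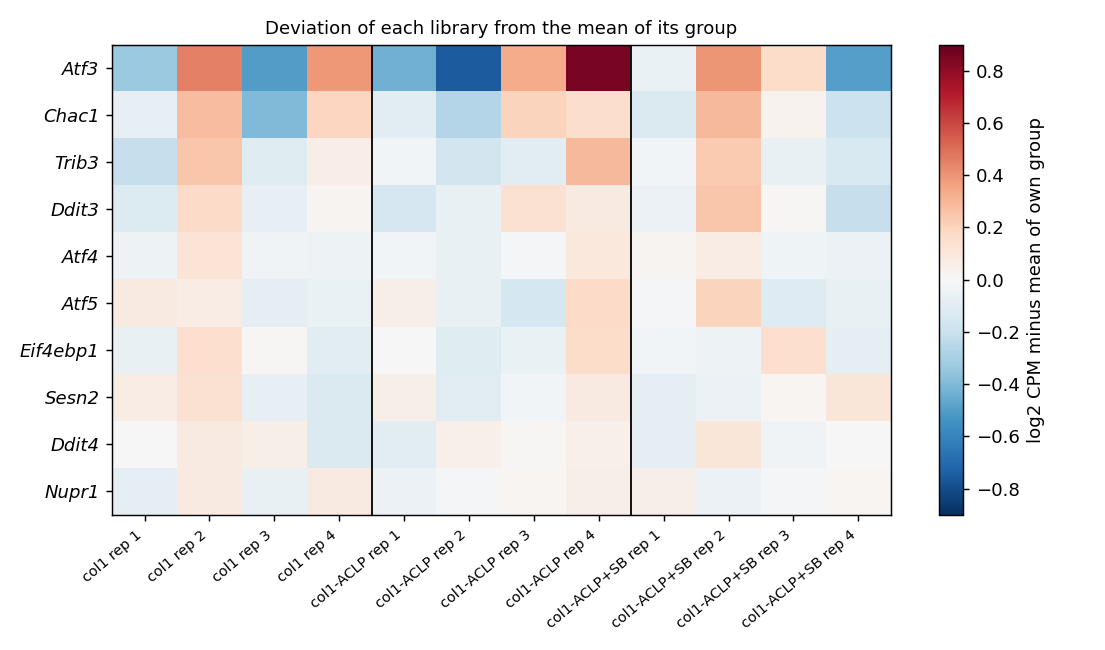
Colour gives log2 CPM minus the mean of the library's own group (red above, blue below) for the 10 regulators in rows and the 12 libraries in columns, with lines between the groups. Atf3 has the strongest colours, from -0.75 in col1-ACLP replicate 2 to 0.85 in col1-ACLP replicate 4, and Chac1 and Trib3 share most of its high and low libraries.

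Of the members, Chac1 (Pearson 0.98), Trib3 (0.97) and Atf4 (0.96) followed the mean of the 10 standardised log2 CPM profiles most closely over the 12 libraries, and Ddit3 (0.61) and Atf3 (0.39) least. Each regulator is itself part of that mean, and the group means were left in. The mean ran from -1.35 to -0.51 in the col1 libraries and from 0.15 to 1.15 in the others. A high correlation with it thus largely restates the difference between col1 and the ACLP groups. Among 12947 genes compared, the 5 outside the list whose profile was most like that mean were P3h1 (0.99), Adamtsl4, Rhob, Pck2 (each 0.98) and Slc1a4 (0.97). Slc1a4, a neutral amino acid transporter, went from 25.7 ± 2.42 on col1 to 62.9 ± 9.00 on col1-ACLP and 52.6 ± 8.51 CPM on col1-ACLP+SB (SD, n = 4). Pck2, the mitochondrial form of PEP carboxykinase, went from 100.2 to 168 and 150.2 CPM, and P3h1, a collagen prolyl hydroxylase, from 123 to 160.1 and 151 CPM. Rhob, a small GTPase, went from 395 to 504 and 487 CPM, and Adamtsl4, a secreted matrix protein, from 76.4 to 118 and 107 CPM.

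The wider pathway was followed through lists written with results of these libraries known, and their counts are a description too. Upstream of the regulators, 3 of 16 genes for the eIF2 kinases, eIF2, its exchange factor eIF2B and its phosphatase were higher on col1-ACLP and none lower, beside 9.52% higher and 8.41% lower over all genes tested. With 16 genes that is a difference of 1 or 2 genes, and nothing is read from the count. They were Eif2b2 (log2 fold change 0.61), Eif2b3 (0.54) and Eif2s2 (0.43), subunits of eIF2B and eIF2. None of the 4 kinase genes passed, with log2 fold changes of -6.7e-05 for Eif2ak3 (PERK), -0.20 for Eif2ak4 (GCN2, adjusted p = 0.0621), -0.063 for Eif2ak2 (PKR) and 0.015 for Eif2ak1 (HRI). Ppp1r15a, the phosphatase subunit through which ATF4 and CHOP feed back, was measured at 116 CPM without ACLP and 112 CPM with it (adjusted p = 0.685). The same 3 subunit genes were higher with the inhibitor (4.60% of all genes tested), and none of the 16 passed between col1-ACLP+SB and col1-ACLP.

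Downstream, most of the listed genes of amino acid supply rose, where 9.52% of all genes tested were higher on col1-ACLP and 4.60% with the inhibitor. All 12 aminoacyl-tRNA synthetases listed, which charge tRNAs, were higher on col1-ACLP, with a median log2 fold change of 0.68, led by Aars (0.87), Iars (0.83) and Gars (0.78). Of 11 enzymes of amino acid and one-carbon synthesis, 10 were higher with a median of 1.01, the exception being Cbs at 0.32 to 0.50 CPM. Cth, which makes cysteine, rose by 2.46 on the log2 scale, Mthfd2, a mitochondrial folate enzyme, by 1.43, and Asns, asparagine synthetase, by 1.33. Of 9 amino acid transporters, 6 were higher, led by Slc1a4 (1.29), Slc7a5 (1.10) and Slc7a1 (0.90). The counts against col1 were 12, 10 and 6 with the inhibitor also, at medians of 0.47, 0.72 and 0.42. In these 3 lists 6, 5 and 2 genes were lower in col1-ACLP+SB than in col1-ACLP, by the rule that called 0 of the 10 regulators and 0.905% of all genes lower. Among them were Asns (-0.38, adjusted p = 0.000496), Mthfd2 (-0.46) and Gars (-0.28). Trib3, at -0.32, had an estimate of the size of these and an SE of 0.0956. The SE was 0.0568 for Asns, 0.0823 for Mthfd2 and 0.0502 for Gars. A test of the difference between the lists was not made.

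**Figure D4:**
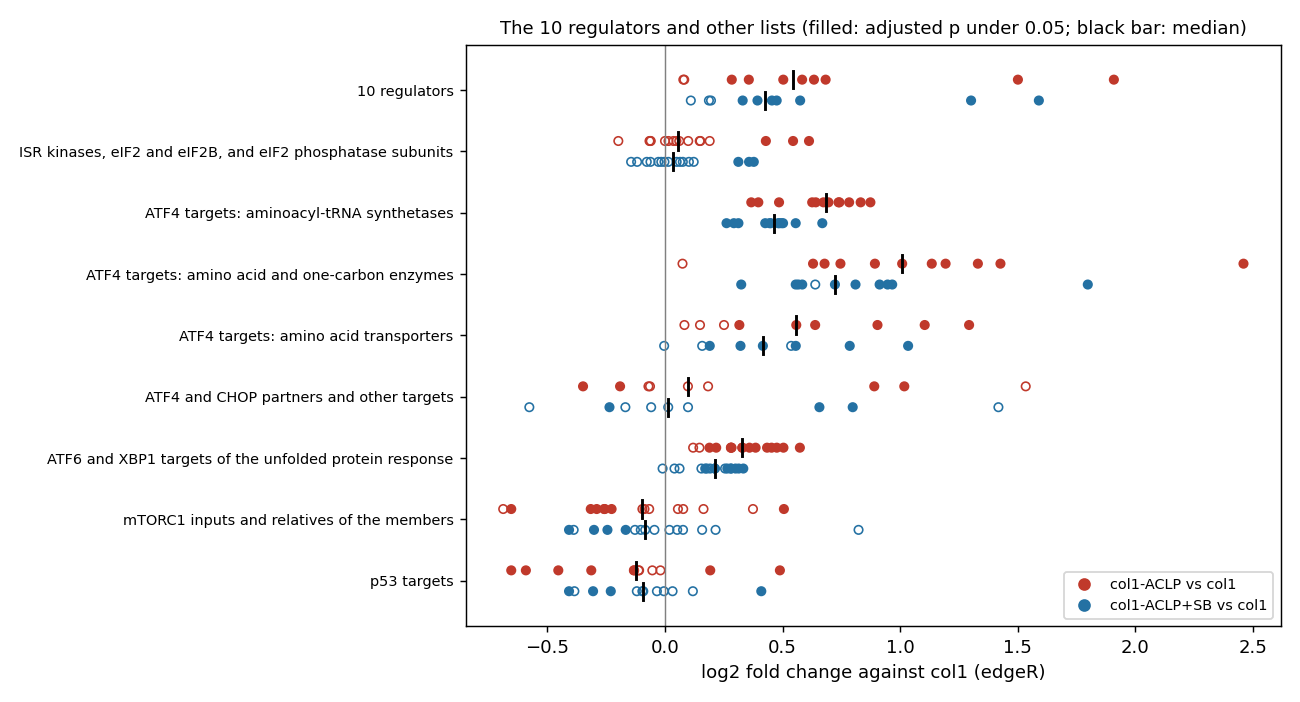
Log2 fold change against col1 on the horizontal axis for each tested gene of the 10 regulators and of 8 other lists, in col1-ACLP (red) and col1-ACLP+SB (blue), filled where the adjusted p is under 0.05, with a black bar at each list's median. The amino acid and one-carbon enzymes have the highest median (1.01 on col1-ACLP), the kinase and eIF2 list stays around 0 apart from 3 genes, and the relatives of the regulators lie mostly to the left.

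Not every gene tied to the pathway moved in that direction. Among 9 tested partners and other targets of ATF4 and CHOP, 2 were higher and 2 lower on col1-ACLP, beside 9.52% and 8.41% of all genes tested, a count too small to be told from that background. Vldlr, a lipoprotein receptor (1.02), and Ero1a, an oxidase of the endoplasmic reticulum (0.89), rose, while Cebpb, a dimer partner of ATF4 and CHOP, fell by 0.35 on the log2 scale and Nfe2l2 by 0.19. With the inhibitor Vldlr and Ero1a were higher and Nfe2l2 lower, and Ero1a was the gene of this list that was lower against col1-ACLP (-0.23). Targets of the other arms of the unfolded protein response, ATF6 and XBP1, were higher for 14 of 16 genes on col1-ACLP with a median of 0.33, led by Hyou1 (0.57), Hsp90b1 (0.50) and Edem1 (0.48), which are chaperones or act in degradation in the endoplasmic reticulum. With the inhibitor 9 of 16 were higher than on col1 (4.60% of all genes tested), and 4 (Hspa5, Hsp90b1, Sel1l and Hyou1) were lower than on col1-ACLP (0.905% of all genes tested).

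In a list of 15 tested mTORC1 inputs and paralogues of the regulators, 1 was higher on col1-ACLP and 5 lower, with a median of -0.096, beside 9.52% and 8.41% of all genes tested. Sesn1, a paralogue of Sesn2, fell by 0.65 (from 124 to 78.7 CPM, adjusted p = 7.70e-08), Trib2, a paralogue of Trib3, fell by 0.32 (from 125 to 100.1 CPM), and Deptor, an mTOR inhibitor, rose by 0.51. The others that were lower were Sesn3, Atf7 and Flcn. With the inhibitor 4 were lower than on col1 and none higher (4.54% and 4.60% of all genes tested), and none passed against col1-ACLP. Because Sesn2, Trib3 and Ddit4 can also respond to p53, 12 p53 targets were followed. On col1-ACLP 2 were higher and 5 lower, among them Plk2 (0.49), Btg2 (-0.59) and Sesn1, which both lists hold. With the inhibitor 1 was higher and 3 lower than on col1. The shares over all genes tested were 9.52% higher and 8.41% lower, and 4.60% and 4.54% with the inhibitor. A part of p53 in the values of the regulators was not tested.

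Stress and RNA quality genes also differed between the groups. Of 8 such genes 4 were lower on col1-ACLP and none higher, beside 8.41% and 9.52% of all genes tested, among them the immediate early genes Jun (-0.65) and Egr1 (-0.47) and the nuclear RNA Neat1 (-0.37). Their summed level ran from 4265 to 4507 CPM on col1, 3112 to 3725 on col1-ACLP and 3861 to 4832 on col1-ACLP+SB, and 2 were lower than col1 with the inhibitor (4.54% of all genes tested) and 2 (Malat1 and Neat1) higher than on col1-ACLP (0.571% of all genes tested). Of the 4 tested markers of other cell types, 2 were lower on col1-ACLP, Pparg (-0.63) and Cd68 (-0.49), and 1, Pparg, with the inhibitor, beside 8.41% and 4.54% of all genes tested. The part of either list in the values of the regulators was not tested.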

How the data were processed

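Poly(A) RNA from 12 libraries of 10T1/2 cells had been sequenced as paired-end reads and aligned by the authors with HISAT2 to GRCm39. The labels name mm10, but 33753 of 56017 gene identifiers shared with GENCODE vM39 had identical GRCm39 coordinates in the deposited table. The deposited values are raw read counts for each gene, with no normalization by the authors, and the counting tool, its strand setting and the annotation release are not given in the sources used here.

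Tests on the counts used edgeR 4.0.16 under R 4.3.3 (filterByExpr, 16465 of 56748 genes kept, TMM, glmQLFit and glmQLFTest, 1 mean per group), with p-values adjusted by the Benjamini-Hochberg method over every tested gene. A call needed an adjusted p-value under 0.05 and, where stated, a log2 fold change over 0.58, as in the study, which used DESeq2. The common dispersion had a square root of 0.153, and totals of 29246154 to 52201922 counts make counting error small beside it except for low genes such as Atf3. CPM and FPKM were computed from the counts, with a prior count of 2 on the log2 scale. Intervals are at 95%, from the fold change and its standard error. The procedure was tested on simulated counts with known changes.

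The regulators and all gene lists (eIF2 machinery, synthetases, amino acid enzymes, transporters, partners, ATF6 and XBP1 targets, mTORC1 inputs and relatives, p53 targets, other cell types, RNA quality) were chosen with earlier results of these data known. All 10 regulators were named, with the 3 largest called changes of each list, the eIF2 kinases and Ppp1r15a, and the 5 genes most like the regulators. Other named genes, such as list exceptions, were chosen after their values were seen. Replicates are biological replicates per the study, and pairs differed by more than sampling noise (chi-square per degree of freedom 7.32 to 19.7), so all 12 were kept. Alternatives were other size factors, filters, DESeq2 1.42.0, limma-voom (limma 3.58.1), glmTreat, pairs of groups, a replicate block and leaving out each library. The deviations of same-numbered libraries had correlations of -0.037 to 0.036, and the numbers were not taken as pairs.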

Additional observations from a re-analysis of the deposited data

Results flagged for a closer look

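Atf4 in col1 replicate 2 lay far from the rest of its group, at 296 CPM against 263 to 266 CPM in the other col1 libraries. The gap was 0.905 of the range of the group, above Dixon's critical value for 4 samples. It was the only such sample in 30 groups examined (10 genes in 3 groups), and chance gives about 1 in 20 groups. The same library stood apart on the first principal component. Without it the log2 fold change of Atf4 on col1-ACLP was 0.55 in place of 0.50.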

How the results depend on the processing

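Of 600 fold changes of the regulators under alternatives, 581 kept their direction and side of the threshold, 8 passed the threshold newly and 11 changed sign. The 8 regulators higher on col1-ACLP stayed 8 under every alternative run, and the 7 higher with the inhibitor were 7 or 8 (glmTreat, which tests against 0.58, bears only on the counts with the fold threshold). With the fold threshold the 2 with the inhibitor were 2 to 3, and the 5 on col1-ACLP were 2 by glmTreat against 0.58 (Trib3 and Chac1) and 3 to 5 with a library left out. Over all genes tested glmTreat called 144 higher on col1-ACLP, against 430 in the main fit with the fold threshold. Against col1-ACLP, the 0 calls with the inhibitor became 2 with no filter on low counts (Trib3 and Eif4ebp1), 2 with DESeq2, 1 with limma-voom and 0 to 1 with a library left out. Apart from glmTreat, the adjusted p over alternatives ran from 0.0185 to 0.245 for Atf4, 0.000116 to 0.358 for Trib3 and 0.0101 to 0.268 for Eif4ebp1. Every change of sign was in Atf3, whose log2 fold change on col1-ACLP was -0.072 with limma-voom and -0.27 to 0.29 with a library left out, and with a library left out -0.037 to 0.27 for col1-ACLP+SB against col1 and -0.18 to 0.38 against col1-ACLP. The cause was not tested. Replicate numbers do not pair the libraries, and a fit with the replicate block gave 8, 7 and 0 calls in the 3 comparisons, and 1483 higher and 1270 lower genes in all on col1-ACLP, against 1568 and 1385 without it. Scaling by library size alone gave 1159 higher and 1865 lower genes, and left 8 regulators higher. Between the ACLP groups DESeq2 called 240 genes higher and 342 lower, and the fit without a filter 180 and 248, against 94 and 149.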
